A study of Mus musculus with 2 samples.

Results

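The genes described here encode Ragulator and the Rag GTPases. Their mRNA was measured in RAW264.7, a cell line of mouse macrophage type. The members are the 5 subunits of Ragulator, Lamtor1 to Lamtor5, and the 4 Rag GTPases, Rraga, Rragb, Rragc and Rragd. They were chosen by the gene name that the array files give each probe, which for the Ragulator subunits is an older symbol. This rule found 12 probes for the 9 genes, of 39429 probes that were not controls, for which 22803 gene names could be assigned. Of the 12 probes, 7 belong to Ragulator and 5 to the Rag GTPases, and each was present as 1 spot on each array.

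One array was hybridised with RNA of Lamtor1 knockdown cells and 1 with RNA of control cells. The knockdown used lentiviral short hairpin RNA, a mixture of 2 vectors against Lamtor1 mRNA, in cells infected after 2 passages and put through limiting dilution 2 days later. The labels repeat this treatment text for the control sample, so the sources used here do not say what the control cells received. Whether either population is 1 clone is also not given, and a clone can differ from its parent line for reasons other than the hairpin. The stated question of the series is the activity of TFEB, a transcription factor for lysosomal genes, in cells that lack Ragulator. With 1 array per group there is no replicate check, no test was possible, and every difference describes these 2 arrays.

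Ragulator is a complex on the surface of the lysosome. Lamtor1 is tied to the membrane by lipid groups at its end and wraps around the other subunits, which form pairs of small roadblock-fold proteins. The complex holds the Rag GTPases, in which RagA or RagB pairs with RagC or RagD, and when amino acids are plentiful these recruit the kinase complex mTORC1 to the lysosome. TFEB and its relatives are phosphorylated by mTORC1, bind Rag GTPases, and drive lysosomal genes through a DNA element with the core hexamer CACGTG.

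The arrays lay on 1 slide and were read in 1 scan. On the knockdown array 22745 of 43020 spots (52.9%) were well above background, against 22929 of 43020 (53.3%) on the control array, and none was saturated on either. All 10 macrophage markers were well above background on both arrays, with a median level of 2.02 in knockdown and 2.43 in control cells, on the log2 scale explained below. By the brightest probe of each gene, Cd68, Mrc1 and Fcgr3 (3 of 10) passed 2-fold upward in the knockdown and Adgre1 (1 of 10) passed it downward. Over all measured genes, 9.0% passed it upward and 8.35% downward. The Csf1r probes ran from -1.34 to -0.82 in log2, knockdown minus control, so its lowest probe also passed 2-fold downward. The part of these marker differences in the results below was not tested. Of the markers of other cells, 1 of 6 fibroblast, 0 of 4 epithelial, 1 of 4 lymphocyte, 0 of 3 mast cell and 0 of 2 erythroid genes with a probe were above background on either array. Fewer cells of a kind and less RNA per cell cannot be told apart on such arrays.

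A level is log2 of the processed signal after subtraction, in log2, of that array's 75th percentile. Each difference is knockdown minus control. The ± after a difference is the error that the scanner software gives each signal, carried through to log2. It assumes a multiplicative error of 10% and covers the arrays, not cell cultures. Probes carry different sequences, so the level of 1 probe is not set against that of another.

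Lamtor1, the membrane anchor and the targeted gene, was the only member that was at least 2-fold lower. Its signal was 931 on the knockdown array, against 20046 on the control array. The log2 difference was -4.53 ± 0.20, so that 4.34% of the control signal was left, a 23.1-fold lower value. Both signals were well above background, with local backgrounds of 31.0 in the knockdown and 32.0 in the control. Among all 21863 probes measured, meaning well above background on at least 1 array, 84 (0.384%) had a lower difference. Of all measured probes, 8.36% were at least 2-fold lower.

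The Lamtor1 result rests on a single probe, A_55_P2052185, at chr7:109060334-109060393 of the mm9 build, which starts at base 1102 of the transcript. The array files also list 2 predicted transcripts for it, XM_484764 and XM_906393, and their part in the signal left was not tested. The probe is shown because the check of the targeted gene depends on it. These are its first 30 of 60 bases, 5′ to 3′, in a stretch rich in T.
Lamtor1 probe: ctgggtttttacatgtttgctctttttgtt

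The genes beside Lamtor1 on the chromosome did not share its difference. The nearest measured Lrrc51 probe lay 1.11 kb after that of Lamtor1. By its brightest probe, Lrrc51 had levels of -0.36 in knockdown and -0.77 in control cells, a difference of 0.41. Anapc15, a subunit gene of the anaphase-promoting complex, lay 12.3 kb before the Lamtor1 probe. It had 2.90 in knockdown and 3.19 in control cells, a difference of -0.29. Both stayed within 2-fold.

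The other 4 Ragulator subunits stayed within 2-fold at all 6 of their probes, with differences between -0.08 and 0.80 and a median of 0.65. Of these probes 5 lay above 0. Lamtor3 holds 3 of the 6 probes, so the median and this count lean on 1 gene. The probes of Lamtor2, Lamtor4 and Lamtor5 had -0.08, 0.56 and 0.22. Over all measured probes the median was -0.07, and 43.4% lay above 0.

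Lamtor3, which binds the kinase MEK1 as well as its Ragulator partner Lamtor2, was the highest of these subunits. The first probe had a signal of 29994 in knockdown and 16115 in control cells, a difference of 0.80 ± 0.20. The second had 15141 in knockdown and 8409 in control cells, a difference of 0.75 ± 0.20. The third had 1005 in knockdown and 558 in control cells, a difference of 0.75 ± 0.20. The 3 probes thus gave 1.68-fold to 1.74-fold, and their SD of 0.03 was below the scanner error of any one of them. They lie within the same transcript and are not replicates of the condition. Of the 21863 measured probes, 2347 had a higher difference than the first and 2506 than the third. At 1.5-fold, a threshold that the Lamtor3 probes pass, 6 of the 12 member probes were higher, beside 14.5% of all measured probes, and 1 (Lamtor1) was lower, beside 16.8%. The 6 higher probes belong to Lamtor3, Rragc and Rragd only. Lamtor3 and Rragc are counted more than once, so this is not a count of genes.

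The 3 Lamtor3 probes are shown because their agreement rests on different parts of the mRNA, starting at bases 1104, 982 and 461 of the transcript. In the mm9 build they lie at chr3:137591568-137591627, chr3:137591446-137591505 and chr3:137590925-137590984. The files also list predicted transcripts for the first and the third, but none for the second. The first 30 bases of each follow.
Lamtor3 probe A_55_P2060183: tgtctctccgctttgctgtaaccgtgcttc
Lamtor3 probe A_55_P2060184: taaaaataattaagtacaatcactaacgcc
Lamtor3 probe A_55_P2095909: ctagaaaaggagctagctccattatttgaa

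The chromosomal neighbours of Lamtor3 differed from each other. Dnajb14, a chaperone gene 19.4 kb before the nearest Lamtor3 probe, had a difference of 0.77, and Dapp1, 3.02 kb after it, had 0.03.

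Lamtor4, a small subunit that pairs with Lamtor5, had a signal of 17709 in knockdown and 11227 in control cells. The difference was 0.56 ± 0.20, or 1.47-fold, and 15.1% of all measured probes had a higher one. Lamtor5, its partner, had 23760 in knockdown and 19013 in control cells, a difference of 0.22 ± 0.20 that is close to its scanner error. Lamtor2, the partner of Lamtor3 that helps bring MEK1 signalling to endosomes, had 38235 in knockdown and 37792.5 in control cells. Its difference of -0.08 ± 0.20 was smaller than the scanner error, and it lay just above 0 with median scaling (0.01) and with no scaling between arrays (0.02).

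**Figure D1:**
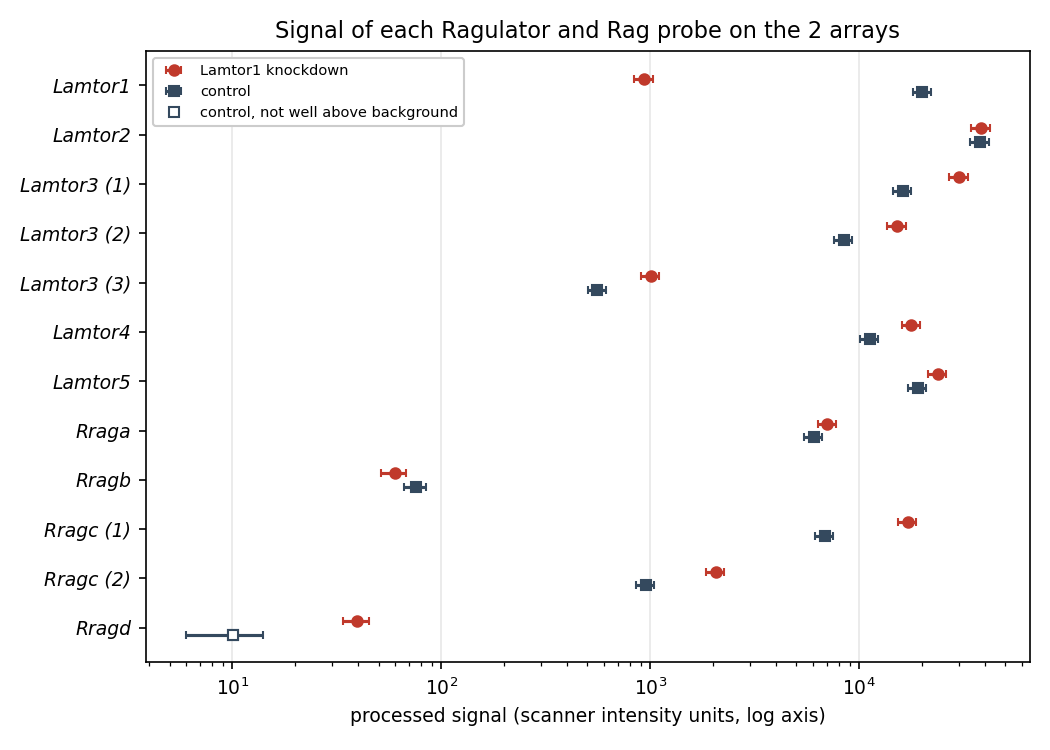
Processed signal (horizontal, log axis) of the 12 member probes on the Lamtor1 knockdown array (red circles) and the control array (dark squares), with the scanner error as bars. The open square marks the Rragd control signal, which was not well above background. Lamtor1 has 931 in the knockdown against 20046 in the control, while both Rragc probes lie to the right in the knockdown.

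Among the Rag GTPases, RagC was higher in the knockdown at both of its probes, and the RagA and RagB probes stayed within 2-fold. The RagD probe was higher on the processed signal, but it counted as measured only through the knockdown array and stayed within 2-fold with normexp and without background correction. Of their 5 probes, 3 were higher in the knockdown by 2-fold or more, and the median difference was 1.01. This median counts RagC at both of its probes and includes the RagD probe on its processed signal, so it is not a value per gene. No other member probe passed 2-fold upward, so the count is 3 of 12, beside 8.46% of all measured probes. These 3 probes represent 2 genes, since Rragc has 2 probes, and counted by its bound (below) Rragd lies just under 2-fold, which leaves 2 of 12. By the brightest probe of each gene, 2 of 9 genes passed 2-fold upward and 1 downward, against 9.0% and 8.35% of 13772 measured genes. The 2 higher genes are Rragc and Rragd, and Rragd is counted here on its plain difference. By its bound only Rragc is left.

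Rraga encodes RagA, a GTPase whose GTP-bound form recruits mTORC1. It had a signal of 7029 in knockdown and 6051 in control cells, a difference of 0.12 ± 0.20, and 34.6% of measured probes had a higher one. Rragb encodes RagB, its close relative. It had 59.8 in knockdown and 75.4 in control cells, a difference of -0.43 ± 0.27. Both Rragb signals were flagged as well above background but were low, at mean spot intensities of 106 in the knockdown and 117 in the control over local backgrounds of 30 in the knockdown and 28 in the control. Without background correction the Rragb difference was -0.23.

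Rragc encodes RagC, the partner GTPase that TFEB and its relatives contact. Its first probe had a signal of 17086 in knockdown and 6821 in control cells. The difference was 1.23 ± 0.20, or 2.34-fold, and 6.66% of measured probes had a higher one. The second probe had 2055 in knockdown and 951 in control cells, a difference of 1.01 ± 0.20, or 2.02-fold. The probes differed by 0.21, about the scanner error of either, and both lay above 0 in each of the settings tried. The second lay slightly under 2-fold, at 0.97, in the percentile scaling over probes above background and with normexp correction, and at 0.98 without background correction.

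The Rragc probes are shown because they read different parts of the mRNA. The first, A_51_P346826, starts at base 2094 of the transcript and lies in 1 block at chr4:123613729-123613788. The second, A_52_P202725, starts at base 1104. Its 60 bases span 5617 bases of the genome, chr4:123607182-123612798, so it crosses at least 1 intron. Both positions are on mm9, and the first 30 bases of each are given.
Rragc probe A_51_P346826: ttctatgctatgtaggctctttacgaattg
Rragc probe A_52_P202725: cactggtttgcattcttagggaagagagct

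Rragd encodes RagD, the closest relative of RagC. It had a signal of 39.5 in knockdown and 10.0 in control cells, and only the knockdown signal was well above background. On the processed signal the fold is therefore given as a bound, at least 1.97-fold higher in the knockdown (0.98 in log2). It is taken against 18.7, the dimmest control signal that counted as well above background. The bound leaves out the scanner error of the signals, which was 5.7 for the knockdown signal, so it is not a strict limit. The plain difference of 1.88 ± 0.61 has the widest error of all members. Mean spot intensities were 102 in the knockdown and 69.3 in the control, over local backgrounds of 28 in the knockdown and 29 in the control. With normexp the difference was 0.44 and without background correction 0.47, both below that bound, so the bound holds for the processed signal only. The difference lay above 0 in each of the settings tried, but all of them start from the same spot on each array and are not separate checks. The probe, A_55_P2287910, lies at chr4:33106184-33106243 on mm9.
Rragd probe: aatttgggactctttgctgccagttgtcaa

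The genes flanking Rragc and Rragd stayed within 2-fold. Mycbp, 18.0 kb before the Rragc probes, had a difference of -0.56, and the transcription factor gene Pou3f1, 724 kb after them, had 0.48. Beside Rragd, Gm11942 had -0.04 and 4933421O10Rik -0.39. Of all 18 nearest measured neighbours of the 9 genes, 0 passed 2-fold upward and 1 passed it downward. Over all measured genes, 9.0% passed it upward and 8.35% downward, and 18 genes are too few to differ clearly from these shares. The neighbours lay between 0.979 and 1445 kb away. The lower one was Mex3a, an RNA-binding protein gene 8.60 kb before Lamtor2, with levels of -5.13 in knockdown and -2.40 in control cells.

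**Figure D2:**
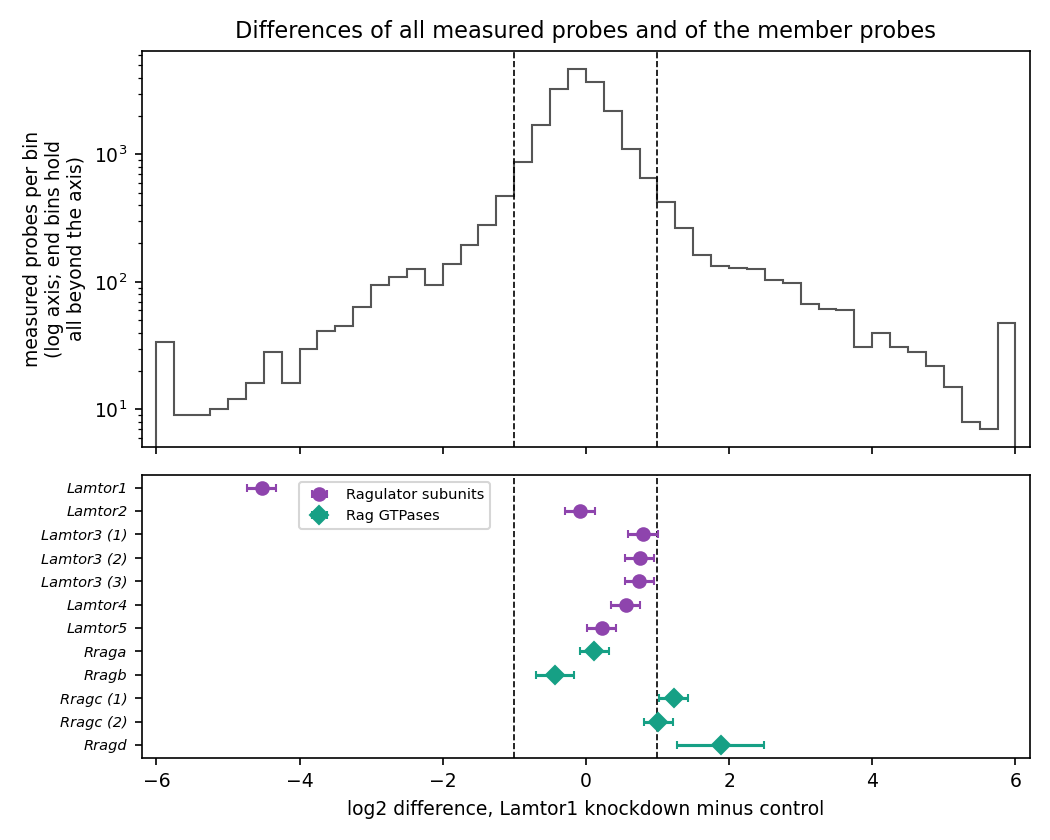
Top, number of measured probes (vertical, log axis) by log2 difference, Lamtor1 knockdown minus control, for 21863 probes, with values beyond the axis in the end bins. Bottom, the same difference for each Ragulator probe (purple circles) and Rag GTPase probe (green diamonds), with the scanner error as bars and 2-fold as dashed lines. Lamtor1 at -4.53 stands far left of the other members, and Rragc and Rragd lie at or beyond the right dashed line.

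RefSeq promoter windows on the GRCm38.p6 build were matched by symbol for 8 of the 9 genes, all but Lamtor3. The 250 bases before the transcript start were searched for CACGTG, which reads the same on both strands. They hold 6 copies in 4 genes: 2 each in Lamtor4 and Rragb and 1 each in Lamtor1 and Rragc. Over all 32851 windows of that length, 6.02% hold at least 1 copy and 0.429% at least 2. All 6 copies are preceded by T or followed by A, so that they match TCACGTG on 1 of the strands, which 3.13% of all windows do. A longer palindrome, with GT before the hexamer and AC after it, is in 0 of the 8 windows and in 0.24% of all.

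The differences of the genes with and without the motif are given as a description. The genes with it had differences of -4.53 (Lamtor1, the targeted gene), 0.56 (Lamtor4), -0.43 (Rragb) and 1.23 (Rragc, first probe). Those without it had -0.08 (Lamtor2), 0.22 (Lamtor5), 0.12 (Rraga) and 1.88 (Rragd, whose control signal was near background, with 0.44 under normexp). The windows of Rragc and Rragd are shown because these 2 genes passed 2-fold on the processed signal and only the first holds the motif. That of Rragb is shown because it holds 2 copies without a higher signal. Rragb was dim on both arrays, at 59.8 in knockdown and 75.4 in control cells, so low signal also limits its difference. The window of the targeted gene is given for comparison. Each is 250 bases, 5′ to 3′ toward the transcript start on the plus strand, with CACGTG in capitals, at chr4:123917183-123917432 (Rragc), chr4:32982748-32982997 (Rragd), chrX:153139708-153139957 (Rragb) and chr7:101905587-101905836 (Lamtor1).
Rragc upstream: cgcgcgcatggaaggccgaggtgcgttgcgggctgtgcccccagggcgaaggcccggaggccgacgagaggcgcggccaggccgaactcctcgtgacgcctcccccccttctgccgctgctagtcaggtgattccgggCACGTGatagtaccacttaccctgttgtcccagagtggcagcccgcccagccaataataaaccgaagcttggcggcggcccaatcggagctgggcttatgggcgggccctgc
Rragd upstream: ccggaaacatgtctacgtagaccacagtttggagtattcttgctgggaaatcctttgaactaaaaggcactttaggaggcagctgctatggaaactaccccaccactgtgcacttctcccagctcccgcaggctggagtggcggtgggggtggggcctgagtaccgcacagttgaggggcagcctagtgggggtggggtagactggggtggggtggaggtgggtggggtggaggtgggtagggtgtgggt
Rragb upstream: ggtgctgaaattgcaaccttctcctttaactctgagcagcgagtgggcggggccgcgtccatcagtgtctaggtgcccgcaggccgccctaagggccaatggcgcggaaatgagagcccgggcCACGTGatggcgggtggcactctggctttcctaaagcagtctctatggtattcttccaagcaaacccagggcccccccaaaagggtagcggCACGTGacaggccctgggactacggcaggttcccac
Lamtor1 upstream: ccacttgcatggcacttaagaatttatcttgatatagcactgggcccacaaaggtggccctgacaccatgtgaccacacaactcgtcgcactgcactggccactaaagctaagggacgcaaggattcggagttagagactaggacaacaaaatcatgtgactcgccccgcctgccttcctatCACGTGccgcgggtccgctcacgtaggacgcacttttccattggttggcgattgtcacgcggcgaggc

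In Rragc the hexamer begins 112 bases before the start and in Lamtor1 68 bases before it. In Rragb the copies begin 127 and 36 bases before the start, and in Lamtor4 120 and 104 bases. A match describes letters in the window, and no binding was measured here.

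**Figure D3:**
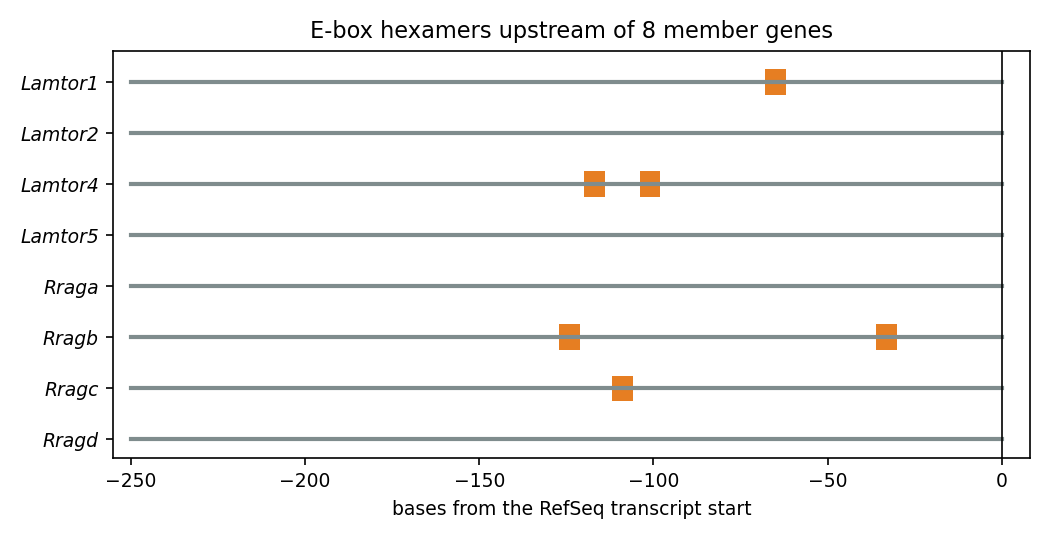
Position of the hexamer CACGTG (orange blocks) in the 250 bases before the RefSeq transcript start (vertical line at 0) of 8 member genes. Lamtor1, Lamtor4, Rragb and Rragc hold it, and the windows of Lamtor2, Lamtor5, Rraga and Rragd do not.

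The partners of the members were described by the brightest probe of each gene. In a list of mTORC1 and lysosomal nutrient-sensing genes, 34 of 37 were measured, of which 4 passed 2-fold upward in the knockdown, 0 passed it downward and 30 lay between, with a median difference of 0.04. Over all measured genes 9.0% passed 2-fold upward and 8.35% downward, so the upward count is near the share over all genes, and the median was -0.05. Of the 4 higher genes, 3 encode the folliculin complex, which stimulates GTP hydrolysis by RagC and RagD. Fnip2 had levels of 3.09 in knockdown and 1.47 in control cells, a difference of 1.62. Flcn had 2.57 in knockdown and 1.42 in control cells, and its 2 probes gave 1.15 and 1.16. Fnip1 had 2.27 in knockdown and 1.22 in control cells, a difference of 1.05. The remaining gene was Tfec, a relative of Tfeb, with -0.69 in knockdown and -2.80 in control cells, a difference of 2.10.

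Some of the genes of this list that stayed within 2-fold, chosen after their values were seen, are given for their roles. Slc38a9, the lysosomal arginine sensor that sits on Ragulator, had a difference of -0.04, and the mTORC1 subunit genes Mtor and Rptor had -0.01 and 0.44. Of GATOR1, which stimulates GTP hydrolysis by RagA and RagB, Nprl2 had 0.44, Nprl3 0.45 and Depdc5 0.08. The measured Depdc5 probes ran from -0.14 to 0.47. Kptn, a subunit gene of the complex that holds GATOR1 on the lysosome, had the lowest difference of the list, -0.79. Tfeb itself had a difference of -0.69, and its relatives Tfe3 and Mitf had -0.39 and -0.67. The sestrin genes went opposite ways: Sesn2, a leucine sensor, had 0.81 and Sesn1 had -0.73, and Sesn3 was not measured.

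In a second list, of BORC subunits and other proteins that act on or with Ragulator, 20 of 22 genes were measured, of which 2 passed 2-fold upward in the knockdown, 0 passed it downward and 18 lay between. The upward count is again near the 9.0% over all measured genes, and the median was 0.09. Arl8b, the small GTPase that BORC brings to lysosomes to move them along microtubules, had levels of 4.76 in knockdown and 3.16 in control cells, a difference of 1.59. Npc1, the lysosomal cholesterol exporter, had 0.40 in knockdown and -1.12 in control cells, a difference of 1.53. The 8 BORC subunit genes lay between -0.58 (Borcs5, the subunit tied to the membrane) and 0.32 (Borcs7). Map2k1, which encodes MEK1, had 0.27, and Nmt1 and Nmt2, the enzymes that attach myristate to proteins such as Lamtor1, had 0.14 and 0.29.

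**Figure D4:**
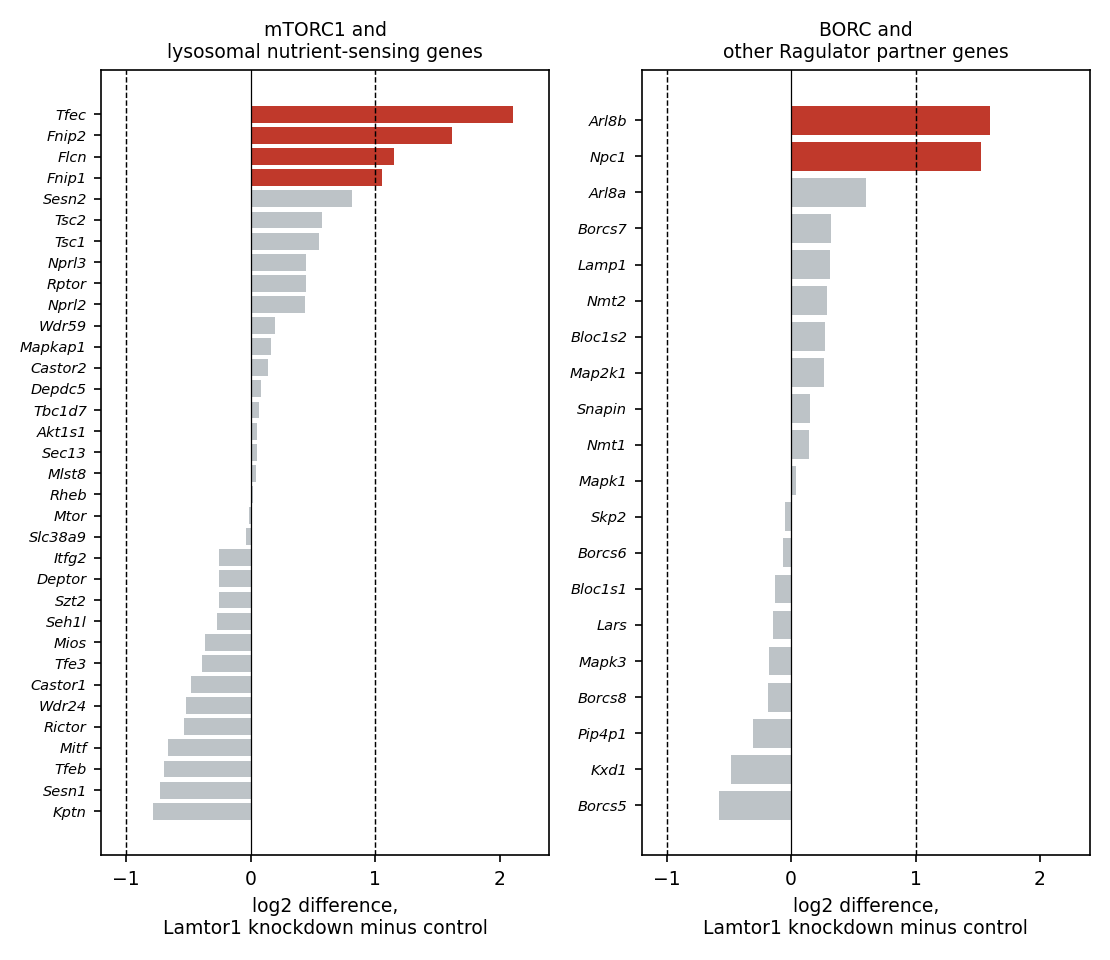
Log2 difference, Lamtor1 knockdown minus control, for the measured genes of the mTORC1 and lysosomal nutrient-sensing list (left, 34 genes) and of the BORC and other Ragulator partner list (right, 20 genes), by the brightest probe. Red bars pass 2-fold (dashed lines): Tfec, Fnip2, Flcn and Fnip1 on the left, Arl8b and Npc1 on the right.

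**Figure D5:**
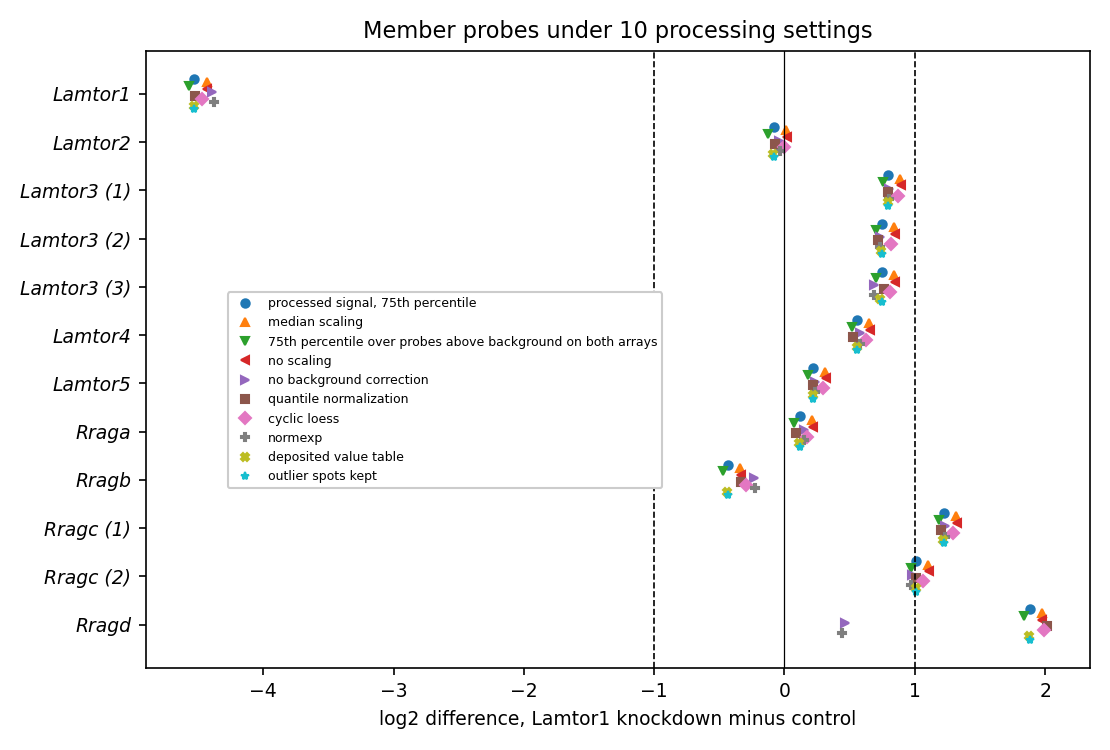
Log2 difference, Lamtor1 knockdown minus control, of the 12 member probes under 10 ways of processing the arrays (symbols), with 2-fold as dashed lines. Lamtor1 stays between -4.57 and -4.38, the first Rragc probe between 1.18 and 1.32, and Rragd drops to 0.44 and 0.47 with normexp and without background correction.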

How the data were processed

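Total RNA, 200 ng per sample, was primed with oligo-dT and labelled with Cy3-CTP, per the labels, and hybridised to 1 one-colour Agilent array per group. The deposited scanner files hold intensity values. Their software was Agilent Feature Extraction, version 10.7.3.1 in the submitters' processing notes. Detrending within the array and surrogates for dim signals were switched on, per the file headers, and probe positions are on mm9. The deposited value table equals the processed intensity within rounding, with ratios of 0.995 to 1.005 and column medians of 27.8 for the knockdown and 28 for the control, so it is linear, uncentred and has no direction of its own.

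From these, log2 of the processed intensity minus the 75th percentile of each array (1255 knockdown, 1172 control) was computed. The percentile was taken over all spots that were not controls. Outlier spots (177 knockdown, 162 control) were left out when probe values were formed. No member probe was an outlier. Repeated spots of a probe were averaged on the log2 scale, and more than 50% of them had to be well above background for the probe to count so. For 216 repeated probes, the SD over spots of the difference between arrays had a median of 0.04. The call at 2-fold is a size, not a test. Of 39429 probes, 26055 were named by accession, 3195 by symbol and 930 by an older symbol through RefSeq genes of GRCm38.p6, used for names only, and 9249 were left unnamed. A gene took its brightest probe. The distance of a chromosomal neighbour runs to its nearest measured probe, which need not be the brightest.

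The text names all member probes, list genes at 2-fold or more, the nearest measured neighbours, cell type markers and the 4 genes most like Lamtor1. Other genes are named to describe partners and were chosen after their values were seen. The members and lists were chosen with earlier results of these data known. Alternatives used limma 3.58.1 in R 4.3.3 (normexp with an offset of 50, quantile and cyclic loess) and Python 3.11.15.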

Additional observations from a re-analysis of the deposited data

How the results depend on the processing

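The difference of Lamtor1 ran from -4.57 to -4.38 over 9 alternative scalings, corrections and spot filters, and 1 member probe was at least 2-fold lower under all 15 alternatives tried for that count. The count of member probes at least 2-fold higher was 3. It was 2 with percentile scaling over probes above background on both arrays, with background passed on both arrays required, and by the bound. With 1 value per gene, by the brightest probe or by the median over probes, it was also 2. It was 1 with normexp and 1 without background correction, where Rragd lay at 0.44 and 0.47 and the second Rragc probe at 0.97 and 0.98, and 6 at a 1.5-fold threshold, which adds the 3 Lamtor3 probes. The median over member probes was 0.65, and 0.22 with 1 value per gene, by the brightest probe or by the median over probes, since Lamtor3 and Rragc then count once each. Both gene lists had the same counts of higher and lower genes under the 9 alternatives. Over all measured probes, 1850 were at least 2-fold higher and 1827 lower, against 1070 and 842 with normexp and 1118 and 899 without background correction. No paired analysis was possible because each group has 1 array. The number of arrays limits the precision, and low signal over background limits Rragd and Rragb.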

Other observations

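Among genes above background on both arrays, the 4 whose difference was nearest to that of Lamtor1 (-4.53), measured as the gap in log2 difference over the 2 arrays, were Dner, 5830428M24Rik, Cebpa and Irf7. Dner, a transmembrane ligand gene of Notch receptors, had levels of -5.12 in knockdown and -0.61 in control cells. Cebpa, a transcription factor gene of myeloid cells, had -3.80 in knockdown and 0.70 in control cells. Irf7, a transcription factor gene of the interferon response, had -4.28 in knockdown and 0.29 in control cells, and 5830428M24Rik had -5.53 in knockdown and -1.02 in control cells. Their gaps to Lamtor1 lay between 0.02 and 0.04, below the scanner error of 0.20 for the Lamtor1 difference. In the knockdown, Dner and 5830428M24Rik lay not far above -5.96, the lowest level there that counted as well above background. Low signal therefore limits their differences. With 2 arrays, likeness means only a difference of the same size.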
